A study of Homo sapiens with 6 samples.

Results

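CabR, a cabazitaxel-resistant prostate cancer line, was set against TaxR, the docetaxel-resistant line from which it was derived. Both descend from C4-2B, a line derived from LNCaP cells that responds to androgen and grows without testicular androgen. The labels give CabR as kept under 5 nM cabazitaxel and TaxR under 5 nM docetaxel, with C4-2B under neither drug, and none of the cells received a treatment before RNA was taken. In the labels, the title of TaxR has the word old added, with no explanation. DU145, an androgen-insensitive prostate carcinoma line, gave the parallel pair CTXR, kept under 5 nM cabazitaxel, and DTXR, kept under 5 nM docetaxel. Each of the 6 lines has 1 library, so differences could not be checked against replicates and no p-value is given. The labels do not say whether a line is a clone or a pool. The added selection and the drug in the medium change together between TaxR and CabR and cannot be told apart.

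Expression is in FPKM, fragments divided by transcript length and by the size of the library, as deposited by the authors. The comparison covers genes at 1 FPKM or more in either library, which gave 14042 genes. Of these 11 were set aside as described below, which left 14031 of the 60658 listed identifiers. A gene is called higher or lower in CabR when the log2 ratio of (FPKM + 1), CabR over TaxR, is at least 1 in size. The added 1 understates the change of genes with low levels.

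Taxanes bind beta-tubulin and stabilise microtubules, which arrests dividing cells in mitosis. Resistant cells are known for the efflux pump P-glycoprotein, the product of ABCB1, which carries taxanes out of the cell. In prostate cells androgen is a hormone that switches on kallikrein genes such as KLK3, which encodes prostate-specific antigen. Taxanes are known to interfere with androgen signalling, so that androgen-induced genes are a usual reading in taxane-treated prostate cells.

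The adjacent kallikrein genes KLK3 and KLK2 on chromosome 19 differed in opposite directions in CabR. Their sequences before the transcription start are shown because both hold a version of the same 15-base element, printed in capitals. The first 6 bases of the KLK3 element, AGAACA, are a motif of androgen response elements. The third sequence belongs to UGT2B15, an androgen-glucuronidating enzyme gene that was higher in CabR, with AGAACA in capitals. All are RefSeq sequences of GRCh38.p14, the 250 bases before the start, read 5′ to 3′ on the gene's strand.
KLK3, chr19:50854665-50854914, plus strand: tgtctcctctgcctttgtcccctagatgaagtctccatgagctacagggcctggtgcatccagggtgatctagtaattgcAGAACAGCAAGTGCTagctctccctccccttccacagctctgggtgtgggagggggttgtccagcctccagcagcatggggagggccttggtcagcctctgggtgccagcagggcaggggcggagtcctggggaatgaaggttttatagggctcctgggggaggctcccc
KLK2, chr19:50873189-50873438, plus strand: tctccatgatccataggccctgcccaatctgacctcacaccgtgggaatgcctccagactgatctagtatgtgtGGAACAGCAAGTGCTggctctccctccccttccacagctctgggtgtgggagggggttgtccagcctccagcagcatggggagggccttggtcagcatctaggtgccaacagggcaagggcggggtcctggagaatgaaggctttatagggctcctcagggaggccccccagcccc
UGT2B15, chr4:68670653-68670902, minus strand: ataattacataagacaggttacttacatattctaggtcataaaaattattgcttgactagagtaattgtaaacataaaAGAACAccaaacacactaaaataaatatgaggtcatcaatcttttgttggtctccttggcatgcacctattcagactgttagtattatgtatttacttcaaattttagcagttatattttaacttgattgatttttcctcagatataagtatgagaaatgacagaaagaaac

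Counted from 1 at the 5′ end of the element, KLK2 differed from KLK3 by the single substitution A1G. The element began 170 bases before the start in KLK3 and 176 bases before it in KLK2. The longest run of identical bases that both sequences share was 80 bases. AGAACA was searched on both strands in windows from 250 bases before to 50 after the start, and 4056 of 27305 RefSeq promoters held it, a share of 14.9%. KLK2 had no such match in its window, which says only that these letters are not there. A comparison of this share between higher and lower genes is void, because fewer than 80% of them have a promoter entry.

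CabR and TaxR were close to each other over most genes. The median log2 ratio was -0.00, and the central 90% of genes lay between -0.69 and 0.66. In CabR 305 genes were higher, which is 2.17% of those compared, and 312 were lower, which is 2.22%, so that 4.4% passed the rule in either direction. Of these, 48 were higher and 41 lower by a log2 ratio of 2 or more. Protein-coding genes made up 11676 of the 14031, and 145 of them (1.24%) were higher and 154 (1.32%) lower. The other 2355 genes, of other or no annotated biotype, held 160 higher and 158 lower, so that 13.5% of them passed the size rule against 2.56% of protein-coding genes. The share past the rule was 9.08% for genes whose larger level was 1 to 5 FPKM and 3.56% for those at 5 to 20 FPKM. It was 1.31% at 20 to 100 FPKM and 2.62% at 100 FPKM or more. Of the higher genes 100 are listed at 0 in TaxR, and 100 of the lower genes are listed at 0 in CabR, where a 0 can be a failed estimate.

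**Figure D1:**
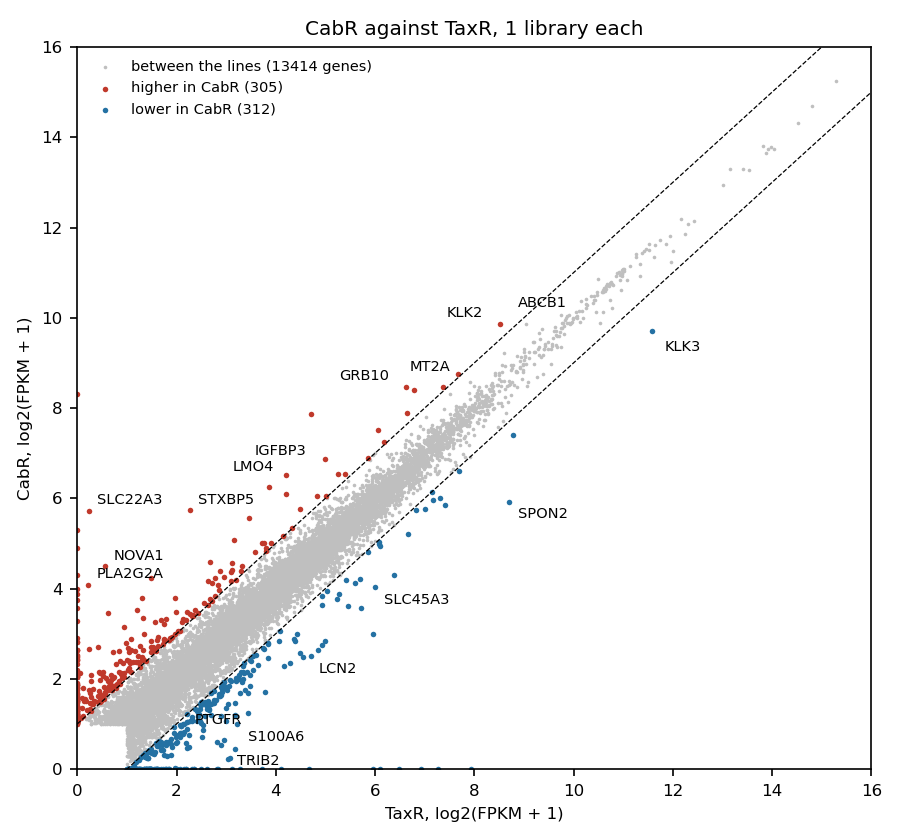
Levels in CabR (vertical) against TaxR (horizontal) as log2(FPKM + 1), with 1 point per gene over 14031 genes and 1 library per line. Dashed lines mark a log2 ratio of 1 in each direction; 305 red genes lie above them, 312 blue genes below, and KLK2 and KLK3 stand on opposite sides.

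Total FPKM, a scaled quantity that does not give library size, was 761774 in CabR and 794170 in TaxR, with 13420 genes at 1 FPKM or more in CabR and 13418 in TaxR. Mitochondrial genes took 26.5% of the total in CabR and 27.9% in TaxR. The lowest values of single-transcript genes fall on steps of 1 fragment, from which 1 FPKM over a kilobase corresponds to about 16.9 fragments in CabR and 15.1 in TaxR. A gene at 1 FPKM in either line rests on few fragments. All 14 marker genes of the C4-2B side were measured in both lines, with a summed level of 3046 FPKM in CabR and 5172 in TaxR. Many of them are androgen-induced genes, and the sum mostly follows KLK3 and KLK2. KLK3 had 841 FPKM in CabR and 3053 in TaxR, and KLK2 had 936 in CabR and 368 in TaxR. Of the 14 genes 12 had a ratio below 0, against 50.4% of all genes compared, with a median of -0.56. Of 12 stromal, immune and endothelial markers only CD68 and COL1A1 reached the filter, with a sum of 6.96 FPKM in CabR and 10.4 in TaxR, and LUM, PTPRC, CD3E, PECAM1 and CDH5 are listed at 0 in both lines.

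The TaxR library held low levels of genes that are typical of DU145. The 11 genes set aside were at 20 FPKM or more in DU145, DTXR and CTXR and under 0.2 FPKM in C4-2B and CabR. They were ANXA1, BASP1, AXL, CD44, KRT7, CAV1, RPL31P11, PAK1, ECHDC1, ANKRD1 and HTATIP2. Their TaxR levels ran between 1.09 FPKM for HTATIP2 and 3.16 FPKM for ANXA1, against 0 to 0.199 FPKM in CabR. These TaxR levels came to 0.788% to 5.70% of the mean in the DU145 lineage, with a median of 1.72%. Just outside the limits, S100A6 had 0.353 FPKM in CabR and 8.06 FPKM in TaxR, while C4-2B is listed at 0 and DU145 had 762 FPKM. ANXA2 likewise had 0.515 FPKM in CabR, 6.04 in TaxR, 0.847 in C4-2B and 427 in DU145. Both were called lower, and the part of DU145-lineage material in their TaxR level was not tested. Of 16 markers of the DU145 side 6 were measured, with a median log2 ratio of -1.07. S100A6, LGALS1 and UCHL1 were the 3 called lower, against 2.22% of all genes compared. The genes set aside were chosen for their TaxR level, and other DU145-typical genes had lower shares, such as 0.0958% for MT1E and 0.639% for DKK1. The measured ones summed to 96.2 FPKM in CabR and 117 in TaxR, while IL6 is listed at 0 in both. A looser limit, TaxR at no more than 5% of every DU145-lineage level, takes out 37 genes, of which 8 were called lower.

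ABCB1, the taxane efflux pump (ENSG00000085563, chr7:87503633-87713323 of GRCh38), was high in both resistant lines. It had 936 FPKM in CabR and 526 FPKM in TaxR, against 0.259 FPKM in C4-2B. The log2 ratio of CabR over TaxR was 0.83, under the size rule, while TaxR over C4-2B gave 8.71. Drug efflux transporters did not share one direction. Among 7 measured genes of 10 listed, ABCB1 included, none passed the rule and the median was 0.27, against -0.20 among those at 5 FPKM or more. ABCC4, an exporter of cyclic nucleotides and drugs, had 27.4 FPKM in CabR and 18.7 in TaxR. ABCC1, a glutathione-conjugate exporter, had 19.5 FPKM in CabR and 35.2 in TaxR, and ABCC10, which can export taxanes, had 4.75 in CabR and 8.62 in TaxR. Tubulin genes, which encode the drug target, also stayed under the rule, with 0 of 15 past it and a median of -0.02. The neuronal isotype TUBB3 had 6.74 FPKM in CabR and 10.9 in TaxR, and TUBB6 had 6.79 in CabR and 11.1 in TaxR, a log2 ratio of -0.64. TUBA1B, an abundant alpha-tubulin, had 809 FPKM in CabR and 630 in TaxR. Of 20 microtubule-associated genes none passed, and the largest ratio was that of KIF2C, a kinesin that takes apart microtubule ends, with 30.2 FPKM in CabR and 14.6 in TaxR.

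SLC22A3 showed the highest ratio of all named genes. It encodes an organic cation transporter of the cell membrane and spans chr6:160348268-160452581. Its level was 52.0 FPKM in CabR and 0.174 FPKM in TaxR, with 1.27 FPKM in C4-2B, a log2 ratio of 5.50. It was thus the line with added cabazitaxel that stood apart, since both other lines of the lineage were near or below 1 FPKM. SLCO3A1, an organic anion carrier, was the other uptake carrier past the rule, with 4.33 FPKM in CabR and 1.48 in TaxR. Of the 8 measured SLC22 and SLCO genes 2 were thus higher, against 2.17% of all genes compared, and their median was 0.11.

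STXBP5, which encodes a syntaxin-binding protein that restrains vesicle fusion, stood at 52.4 FPKM in CabR, 3.82 in TaxR and 4.17 in C4-2B, a log2 ratio of 3.47. NOVA1, a splicing regulator of neurons, had 21.5 FPKM in CabR, 0.477 in TaxR and 4.73 in C4-2B. PLA2G2A, a secreted phospholipase, had 16.02 FPKM in CabR, 0.162 in TaxR and 0.727 in C4-2B. In all of these CabR was also the highest line of the lineage. The same order held for LMO4, a LIM-domain transcription cofactor, with 90.3 FPKM in CabR, 17.6 in TaxR and 15.2 in C4-2B. PCDH20, a protocadherin adhesion protein, had 9.91 FPKM in CabR, 0.538 in TaxR and 0.929 in C4-2B. PHLDA1, which was first known as a gene linked to cell death, had 12.9 FPKM in CabR, 1.49 in TaxR and 2.82 in C4-2B. Only GNAI1 among these reached 10 FPKM in TaxR apart from LMO4. GNAI1, an inhibitory G protein subunit, had 74.98 FPKM in CabR, 13.6 in TaxR and 25.9 in C4-2B.

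In other genes of the 20 highest TaxR was the low line, and C4-2B lay nearer to CabR than to TaxR. CYP4F8, a prostaglandin hydroxylase, had 17.9 FPKM in CabR, 1.80 in TaxR and 22.6 in C4-2B. ADD3, a membrane skeleton protein, had 23.1 FPKM in CabR, 5.41 in TaxR and 39.2 in C4-2B. For both genes C4-2B exceeded CabR. RALYL, an RNA-binding protein, had 7.92 FPKM in CabR, 0.915 in TaxR and 6.27 in C4-2B. RAI14, an actin-binding protein, had 46.0 FPKM in CabR, 10.0 in TaxR and 32.2 in C4-2B. Metallothionein MT1G went furthest in this way, with 10.48 FPKM in CabR, 1.31 in TaxR and 89.8 in C4-2B.

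**Figure D2:**
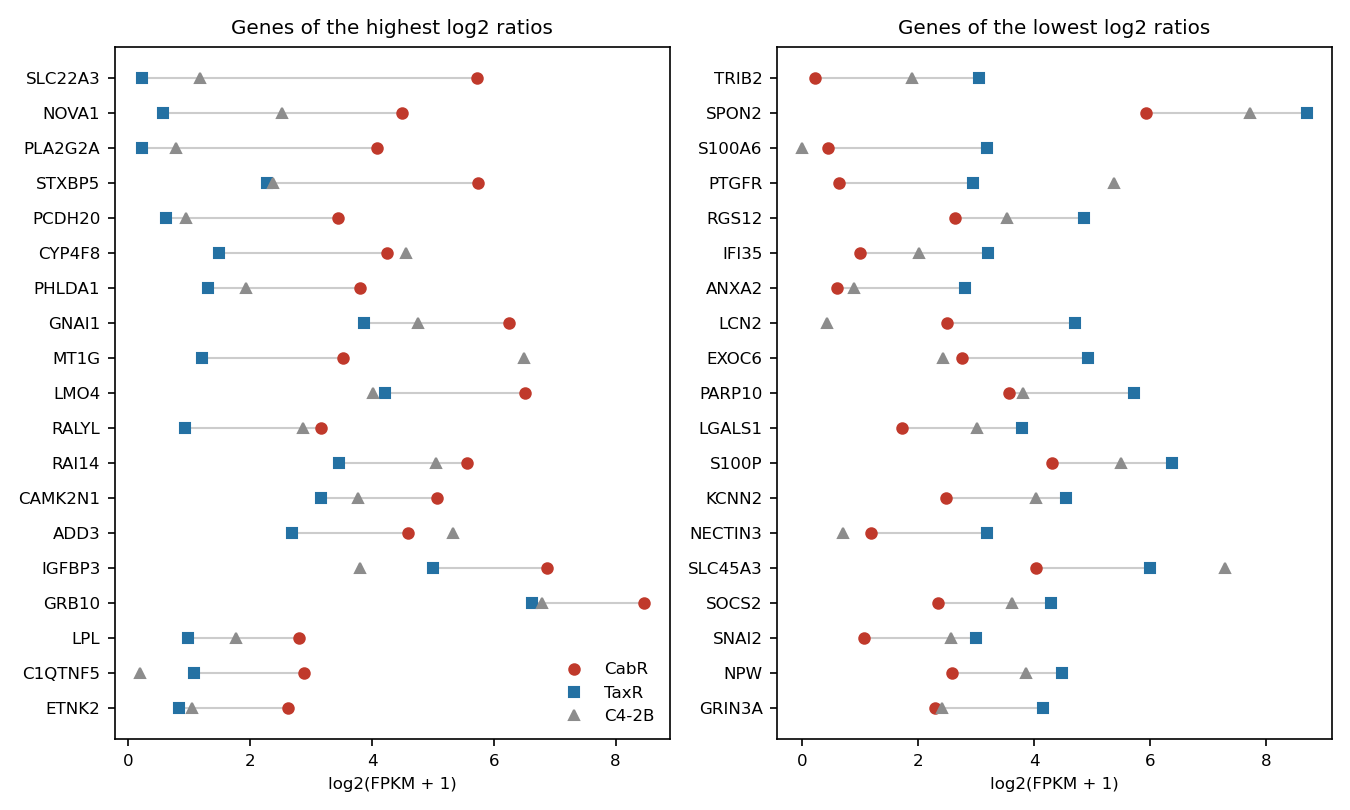
Levels of 19 of the 20 protein-coding genes with the highest log2 ratio (left) and 19 of the 20 with the lowest (right) among genes that reach 5 FPKM in either line, as log2(FPKM + 1) in CabR (red circles), TaxR (blue squares) and C4-2B (grey triangles), 1 library each. SLC22A3 is at the top on the left, with 52.0 FPKM in CabR and 0.174 in TaxR, and TRIB2 at the top on the right, with 0.168 FPKM in CabR and 7.23 in TaxR.

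The other members of the 20 highest had log2 ratios between 1.78 and 1.91. CAMK2N1, an inhibitor of a calcium-dependent kinase, had 32.6 FPKM in CabR and 7.91 in TaxR. LPL, lipoprotein lipase, had 5.99 FPKM in CabR and 0.975 in TaxR, and ETNK2, an ethanolamine kinase, had 5.13 in CabR and 0.780 in TaxR. C1QTNF5, a secreted collagen-like protein, had 6.36 FPKM in CabR and 1.11 in TaxR. IGFBP3 and GRB10, the remaining members, both lie on chromosome 7 and are given with their region.

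Among the 20 lowest genes, SPON2 had the largest difference in level. It encodes spondin 2, a secreted matrix protein, and lies at chr4:1166932-1208962. SPON2 had 59.9 FPKM in CabR and 417 FPKM in TaxR, with 211 in C4-2B, a log2 ratio of -2.78. TRIB2, a pseudokinase, had 0.168 FPKM in CabR, 7.23 in TaxR and 2.72 in C4-2B, and its ratio of -2.82 was the lowest. CabR was the lowest line of the lineage for both genes. The same held for S100P, a calcium-binding protein, with 18.7 FPKM in CabR, 81.8 in TaxR and 44.3 in C4-2B. RGS12, which shortens G protein signals, had 5.22 FPKM in CabR, 28.0 in TaxR and 10.54 in C4-2B. SOCS2, a feedback inhibitor of cytokine signals, had 4.07 FPKM in CabR, 18.5 in TaxR and 11.3 in C4-2B. For each of these genes TaxR also exceeded C4-2B, as it did for the next ones. KCNN2, a calcium-activated potassium channel, had 4.56 FPKM in CabR, 22.3 in TaxR and 15.4 in C4-2B. SNAI2, a transcription repressor of epithelial genes, had 1.08 FPKM in CabR, 6.98 in TaxR and 4.89 in C4-2B.

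Several genes were highest in TaxR, with CabR nearer to C4-2B than to TaxR. LCN2, the iron-carrier protein lipocalin 2, had 4.66 FPKM in CabR, 25.1 in TaxR and 0.337 in C4-2B. EXOC6, an exocyst subunit, had 5.73 FPKM in CabR, 29.3 in TaxR and 4.37 in C4-2B. NECTIN3, an adhesion protein, and GRIN3A, a glutamate receptor subunit, followed this order, with 1.28 and 3.87 FPKM in CabR and 8.06 and 16.9 FPKM in TaxR. C4-2B had 0.625 FPKM of NECTIN3 and 4.33 FPKM of GRIN3A. PARP10, a mono-ADP-ribosyltransferase, had 10.9 FPKM in CabR, 51.6 in TaxR and 12.9 in C4-2B. PTGFR, the prostaglandin F receptor, was instead ordered by selection step, highest in the parent, with 0.557 FPKM in CabR, 6.71 in TaxR and 40.5 in C4-2B. LGALS1 was called lower as well, with 2.28 FPKM in CabR, 12.8 in TaxR and 7.08 in C4-2B, but DU145 holds 233 FPKM of it.

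Exons of STXBP5, PHLDA1, ADD3, SOCS2, PARP10, PMEPA1, LAMB1 and KRT8 overlap genes on the opposite strand in the annotation. The same holds for GRHL2, MCM7, TUBB6, RNF43, ALDH1A3, CD68 and EIF2B5-DT. Overlap was looked up only for genes picked by the naming rule given below. The libraries were stranded, but the use of strand in counting is not given in the sources used here.

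Androgen-induced genes mostly had ratios below 0. Of 29 measured genes 23 had a ratio below 0, against 50.4% of all genes compared. Of the 29 genes 5 were called lower and 1 higher, against 2.22% and 2.17% of all genes compared. The list's median was -0.53. KLK3, at chr19:50854915-50860764, had 841 FPKM in CabR, 3053 FPKM in TaxR and 3567 FPKM in C4-2B, a log2 ratio of -1.86. SLC45A3, the prostate membrane carrier prostein, had 15.3 FPKM in CabR, 63.2 in TaxR and 155 in C4-2B. FKBP5, a chaperone partner of steroid receptors, had 61.3 FPKM in CabR, 144 in TaxR and 160 in C4-2B. KLK3 and FKBP5 were thus near the C4-2B level in TaxR and well under it in CabR. PMEPA1, an inhibitor of TGF-beta signals, had 62.9 FPKM in CabR, 159 in TaxR and 127 in C4-2B. GNMT, a glycine methyltransferase, had 5.39 FPKM in CabR, 12.5 in TaxR and 25.7 in C4-2B. TMPRSS2, a membrane protease, was just under the rule, with 100 FPKM in CabR and 189 in TaxR, a ratio of -0.91.

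KLK2, whose 5′ sequence is printed beside that of KLK3, was the exception. It encodes a protease related to prostate-specific antigen. KLK2 had 936 FPKM in CabR, 368 FPKM in TaxR and 515 FPKM in C4-2B, a log2 ratio of 1.35. KLK4, another kallikrein of the same cluster, had 153 FPKM in both CabR and TaxR. In CabR the KLK2 level thus exceeded that of KLK3, whereas TaxR and C4-2B had more KLK3 than KLK2. These genes are close paralogs, so the division of shared reads between them by the authors' software is uncertain. Transcription factors of prostate cells gave no call among those named next. FOXA1, which opens chromatin for other factors, had 157 FPKM in CabR and 141 in TaxR, and HOXB13, a prostate homeobox factor, had 75.7 in CabR and 87.3 in TaxR. GRHL2, an epithelial transcription factor, had 32.7 FPKM in CabR and 52.9 in TaxR.

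Genes known to be held down by androgen were mostly higher. Of 6 measured genes 4 were called higher and none lower, against 2.17% and 2.22% of all genes compared. The list's median was 1.23. UGT2B15 had 8.95 FPKM in CabR, 2.23 in TaxR and 4.18 in C4-2B, and UGT2B17 had 10.2 in CabR, 2.98 in TaxR and 2.74 in C4-2B. DDC, the enzyme that makes dopamine and serotonin from their precursors, had 236 FPKM in CabR, 98.9 in TaxR and 59.4 in C4-2B. BCHE, butyrylcholinesterase, had 1.78 FPKM in CabR and 0.201 in TaxR.

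The UGT2B genes encode enzymes that attach glucuronic acid to androgens and other steroids and so inactivate them. Of 7 measured androgen-inactivating genes 4 were higher and none lower, against 2.17% and 2.22% of all genes compared. The list's median was 1.40, and 1 member was below 0, with a ratio of -0.46. Its summed level was about the same in both lines, with 138 FPKM in CabR and 140 in TaxR. The 4 higher genes held a minor part of these sums. They were UGT2B17, UGT2B15, UGT2B11 and UGT2B28, which lie next to each other at chr4:68537184-69295050. They were the only run of 4 or more adjacent protein-coding genes past the rule in 1 direction. UGT2B11 had 6.92 FPKM in CabR, 1.53 in TaxR and 11.1 in C4-2B, and UGT2B28 had 4.32 in CabR, 1.01 in TaxR and 7.35 in C4-2B. These UGT2B genes are close paralogs, so their separate levels are uncertain. UGT2B15 and UGT2B17 are also counted above among the genes held down by androgen, so these lists overlap. HSD3B1, which converts adrenal precursors towards active androgens, was the single higher gene among 8 measured androgen synthesis genes, with 3.39 FPKM in CabR and 0.377 in TaxR.

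Mitotic genes were shifted upward together by less than the size rule. Of 28 genes 26 had a ratio above 0, against 49.6% of all genes compared, and the list's median was 0.66. CENPF, a kinetochore protein, was the only member called higher, with 27.5 FPKM in CabR, 12.9 in TaxR and 25.4 in C4-2B, a log2 ratio of 1.04. CDC20, the activator of the ubiquitin ligase that ends mitosis, had 123 FPKM in CabR and 61.5 in TaxR. CCNB1, the mitotic cyclin B1, had 114 FPKM in CabR, 58.7 in TaxR and 87.2 in C4-2B. These members were close to the rule without passing it. AURKA, a spindle pole kinase, had 49.3 FPKM in CabR and 26.9 in TaxR. MAD2L1 and NUF2, a spindle checkpoint and a kinetochore protein, were the members below 0. MAD2L1 had 26.7 FPKM in CabR and 35.0 in TaxR.

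Genes of DNA replication were less shifted. None of 27 passed the rule and the median was 0.11, with MCM7, a subunit of the replicative helicase, at 147 FPKM in CabR and 95.7 in TaxR. None of 21 homologous recombination and PARP genes passed either. Their median was 0.20, and FANCD2, of the crosslink repair pathway, had 19.1 FPKM in CabR and 11.3 in TaxR. A difference in the share of cells in mitosis and one in RNA per cell cannot be told apart in such bulk samples. The list of p53 targets had a median of -0.00 with 0 of 18 past the rule, and BCL2 family and caspase genes had 0.01 with 0 of 20. The largest ratio of the caspase list was that of BIRC5, the apoptosis inhibitor survivin, which had 77.3 FPKM in CabR and 46.9 in TaxR.

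**Figure D3:**
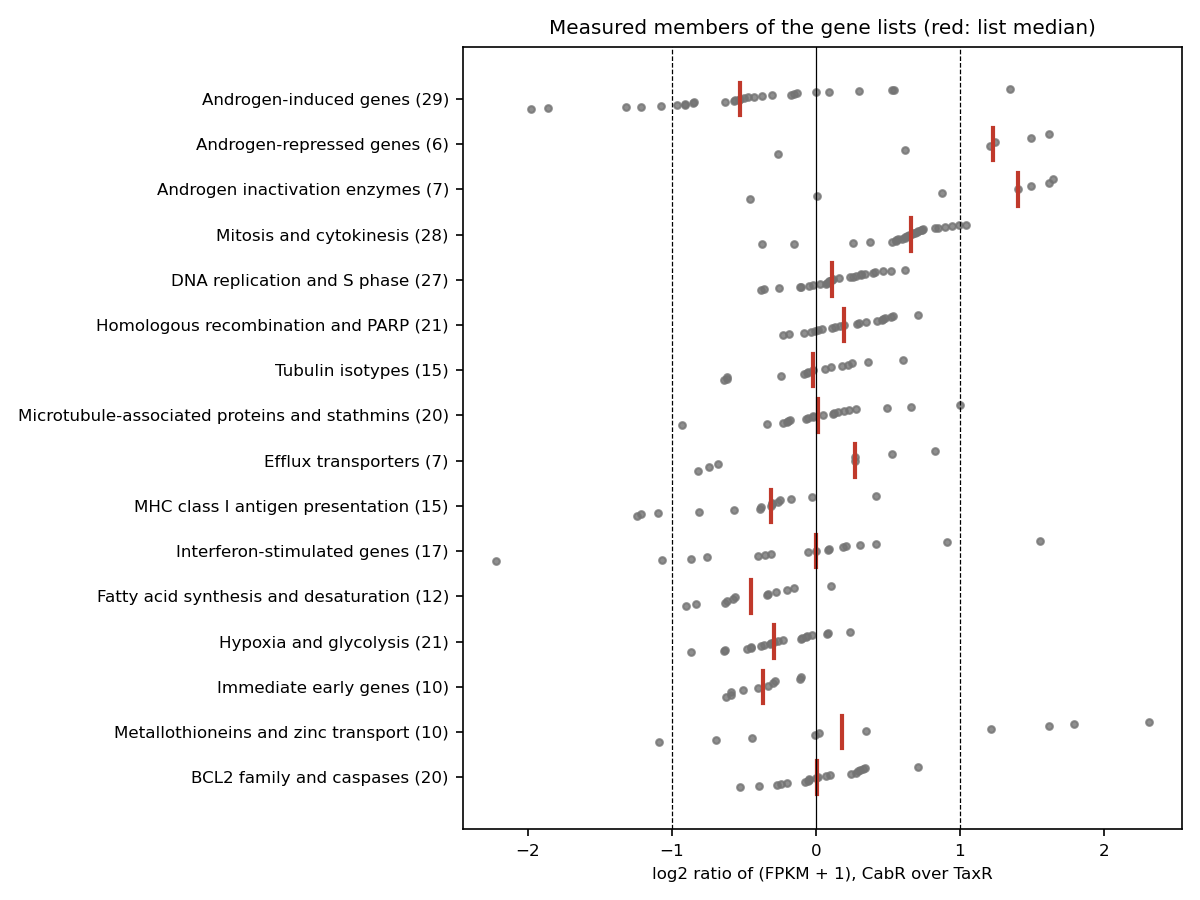
Log2 ratios of (FPKM + 1), CabR over TaxR, of the measured members (grey points, with their number in brackets) of 16 gene lists, 1 library per line; red bars are list medians and dashed lines mark the size rule. Androgen-induced genes have a median of -0.53, androgen inactivation enzymes one of 1.40 and mitotic genes one of 0.66.

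Genes of MHC class I antigen presentation mostly had ratios below 0. Of 15 measured genes 14 were below 0, against 50.4% of all genes compared. The list had 3 genes called lower, against 2.22% of all genes, and a median of -0.31. HLA-C, a class I heavy chain, had 53.3 FPKM in CabR, 128 in TaxR and 161 in C4-2B, and HLA-B had 17.3 in CabR, 41.5 in TaxR and 64.1 in C4-2B. TAP1, which carries peptides into the endoplasmic reticulum, had 5.31 FPKM in CabR, 12.5 in TaxR and 6.91 in C4-2B. The light chain B2M had 171 FPKM in CabR and 203 in TaxR. HLA-B and HLA-C share near-identical sequence and overlap in the annotation, so their separate values are uncertain. The 4 members TAP1, TAP2, TAPBP and PSMB8 lie in a lower stretch of chromosome 6, and the 11 outside such stretches had the same median of -0.31. Those 11 still include HLA-B and HLA-C, which lie on chromosome 6 in a gap between its lower stretches. The median over all protein-coding genes of that chromosome was -0.22, and its part in the ratios of the list was not tested.

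Interferon-stimulated genes as a list had a median of -0.00, with 1 of 17 higher and 2 lower. Over all genes compared 2.17% were higher and 2.22% lower. IFI35, an interferon-induced protein, had 0.989 FPKM in CabR and 8.26 in TaxR, and OAS1, a sensor of double-stranded RNA, had 0.315 in CabR and 1.76 in TaxR. BST2, the virus-tethering protein tetherin, went the other way, with 5.26 FPKM in CabR, 1.13 in TaxR and 21.8 in C4-2B.

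Metallothioneins, small proteins that bind zinc and copper, were partly higher in CabR, with the abundant MT2A and MT1F still far below C4-2B. Of 10 measured genes of metallothionein and zinc transport 4 were higher and 1 lower, against 2.17% and 2.22% of all genes compared. The list's median was 0.18. MT2A had 338 FPKM in CabR, 109 in TaxR and 5793 in C4-2B, and MT1F had 64.8 in CabR, 27.3 in TaxR and 572 in C4-2B. MT1B had 2.46 FPKM in CabR and 347 in C4-2B and is listed at 0 in TaxR. MT1X stayed level, with 142 FPKM in CabR and 143 in TaxR. The lower member was MT1L, listed at 0 in CabR with 1.12 FPKM in TaxR, and it stands just outside the set-aside limits given above. MT1B, MT1F and MT1G are adjacent at chr16:56651899-56668065, and as close paralogs their separate levels are uncertain.

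Lipid synthesis genes leaned lower without passing the rule. Of 12 fatty acid synthesis and desaturation genes 11 were below 0, with a median of -0.45. ELOVL5, a fatty acid elongase, had 190 FPKM in CabR, 355 in TaxR and 589 in C4-2B. FASN, fatty acid synthase, had 433 FPKM in CabR, 665 in TaxR and 1147 in C4-2B, and SCD, a desaturase, had 361 in CabR, 533 in TaxR and 782 in C4-2B. For all of these CabR lay below TaxR and TaxR below C4-2B. Without the 3 members in lower stretches of chromosomes 4 and 6 the median was -0.33. Cholesterol synthesis had a median of -0.19 with 11 of 16 genes below 0.

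Hypoxia and glycolysis genes had a median of -0.29, with 18 of 21 below 0 and none past the rule. VEGFA, the endothelial growth factor, had 43.2 FPKM in CabR, 79.6 in TaxR and 431 in C4-2B. All 10 measured immediate early genes, the first to respond to growth signals, were below 0, with a median of -0.37 and none past the rule. JUN had 13.4 FPKM in CabR and 21.2 in TaxR. Mitochondrially encoded mRNAs had 12 of 13 below 0 and a median of -0.19.

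Markers of cell identity gave single calls in both directions, while 2.17% of all genes compared were higher and 2.22% lower. Of 22 epithelial junction and keratin genes 1 was lower, with a median of -0.09. This was KRT8, a keratin of luminal cells with many pseudogene copies, at 169 FPKM in CabR, 436 in TaxR and 257 in C4-2B. CDH1, E-cadherin, had 94.5 FPKM in CabR and 183 in TaxR, a ratio of -0.94. Among 15 mesenchymal and matrix genes SNAI2 was lower and LAMB1, a laminin chain, was higher, with 4.30 FPKM in CabR and 0.812 in TaxR. The median of that list was -0.10. Only 7 of 30 neuroendocrine and neuronal genes were measured, and of these NOVA1 was higher and UCHL1, a neuronal ubiquitin hydrolase, lower. UCHL1 had 1.71 FPKM in CabR and 7.19 in TaxR, but 570 in DU145.

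Single members of other lists passed the rule, while 2.17% of all genes compared were higher and 2.22% lower. Among genes whose larger level was 1 to 5 FPKM, 9.08% passed it. The cancer/testis antigens MAGEC2 and MAGEA4 were higher, with 1.87 and 4.17 FPKM in CabR and 0.102 and 1.34 FPKM in TaxR, among 12 measured. CHAC1, a glutathione-degrading enzyme of the stress response, was the single higher gene of 20 in its list, with 2.71 FPKM in CabR and 0.743 in TaxR. ME1, malic enzyme, was the single lower gene among 12 NRF2 and glutathione genes, with 14.4 FPKM in CabR and 31.7 in TaxR. CDKN1C, a cyclin-dependent kinase inhibitor, was the single lower gene among 17 of the RB1 and G1 list, with 4.37 FPKM in CabR and 10.2 in TaxR. PLA2G2A was the single higher gene among 8 phospholipase and prostaglandin genes. No gene passed among 15 WNT pathway genes, 14 growth factor receptors and ligands or 16 retinoid and aldehyde dehydrogenase genes. In these lists RNF43, which removes WNT receptors, had 3.62 FPKM in CabR and 1.40 in TaxR. EGFR had 49.7 FPKM in CabR, 26.6 in TaxR and 67.2 in C4-2B, and ALDH1A3, which makes retinoic acid, had 15.3 in CabR and 8.81 in TaxR.

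Small shifts ran along parts of 4 chromosomes. The median log2 ratio of protein-coding genes was -0.18 on chromosome 4, -0.22 on chromosome 6, -0.25 on chromosome 16 and 0.24 on chromosome 7. On every other chromosome it lay between -0.04 and 0.08. Windows of 20 adjacent measured genes with a median of at least 0.4 in size merged into 16 stretches, all on these 4 chromosomes. The stretches were drawn from these same ratios after the values were seen. Their medians, their counts above or below 0 and the direction of their calls follow from that choice and are a description. The stretches hold 597 protein-coding genes, of which 9 were higher and 25 lower. Over all protein-coding genes 1.24% were higher and 1.32% lower. Outside them 136 of 11079 protein-coding genes were higher and 129 lower.

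On chromosome 4 the 3 stretches run between 88725955 and 189963204 and hold 168 genes, of which 149 were below 0. Of the 168 genes 6 were called lower and 1 higher, against 1.32% and 1.24% of all protein-coding genes. Their median was -0.44 for CabR over TaxR, -0.43 for CabR over C4-2B and 0.02 for TaxR over C4-2B, comparisons that share libraries. SLC39A8, a zinc and manganese importer in this region, had 56.9 FPKM in CabR, 170 in TaxR and 85.5 in C4-2B. GALNT7, an enzyme of O-linked glycan synthesis, had 17.7 FPKM in CabR, 50.8 in TaxR and 34.3 in C4-2B. FAT1, a giant cadherin, had 1.80 FPKM in CabR and 4.93 in TaxR.

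On chromosome 6 the 6 stretches hold 240 genes, with 208 below 0. Of the 240 genes 18 were called lower and none higher, against 1.32% and 1.24% of all protein-coding genes. Their median was -0.40 for CabR over TaxR, -0.32 for CabR over C4-2B and 0.08 for TaxR over C4-2B. The stretch at chr6:16238580-28278224 had 12 lower genes among 76, several of them histone genes. H2AC17, which encodes a histone H2A, had 6.20 FPKM in CabR, 15.7 in TaxR and 9.23 in C4-2B. H2BC15, a histone H2B gene, had 3.02 FPKM in CabR and 9.07 in TaxR. Histone mRNAs of this cluster mostly lack poly(A) tails, are near-identical to each other and are poorly measured in mRNA libraries. BTN3A2 and BTN3A3, butyrophilins read by T cells, had 0.641 and 0.817 FPKM in CabR and 4.69 and 4.80 FPKM in TaxR. FKBP5, TAP1 and ME1 also lie in lower stretches of this chromosome. SLC22A3 and STXBP5 lie further along the same chromosome, outside them.

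Chromosome 7 went the other way, with 95 of 106 genes in its 4 stretches above 0. Of the 106 genes 7 were called higher and none lower, against 1.24% and 1.32% of all protein-coding genes. Their median was 0.37 for CabR over TaxR, 0.31 for CabR over C4-2B and -0.09 for TaxR over C4-2B. At chr7:44114681-56080670 the median was 0.36 over 31 genes and 4 were higher, namely IGFBP1, IGFBP3, DDC and GRB10. IGFBP3, a carrier of insulin-like growth factors at chr7:45912245-45921874, had 115.7 FPKM in CabR, 30.9 in TaxR and 13.0 in C4-2B. GRB10, an adaptor that dampens insulin receptor signals at chr7:50590063-50793462, had 355 FPKM in CabR, 97.4 in TaxR and 109 in C4-2B. Both ratios, 1.87 and 1.85, were far above the median of their region. Of 3 measured IGF binding proteins IGFBP2 lies elsewhere, with 110 FPKM in CabR and 115 in TaxR. ABCB1 lies on chromosome 7 as well, outside the stretches.

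On chromosome 16 the 3 stretches hold 83 genes, of which 74 were below 0, with a median of -0.41. Only PPL, a desmosome-associated protein, was called lower there, with 1.83 FPKM in CabR and 5.25 in TaxR, and MT2A was higher.

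**Figure D4:**
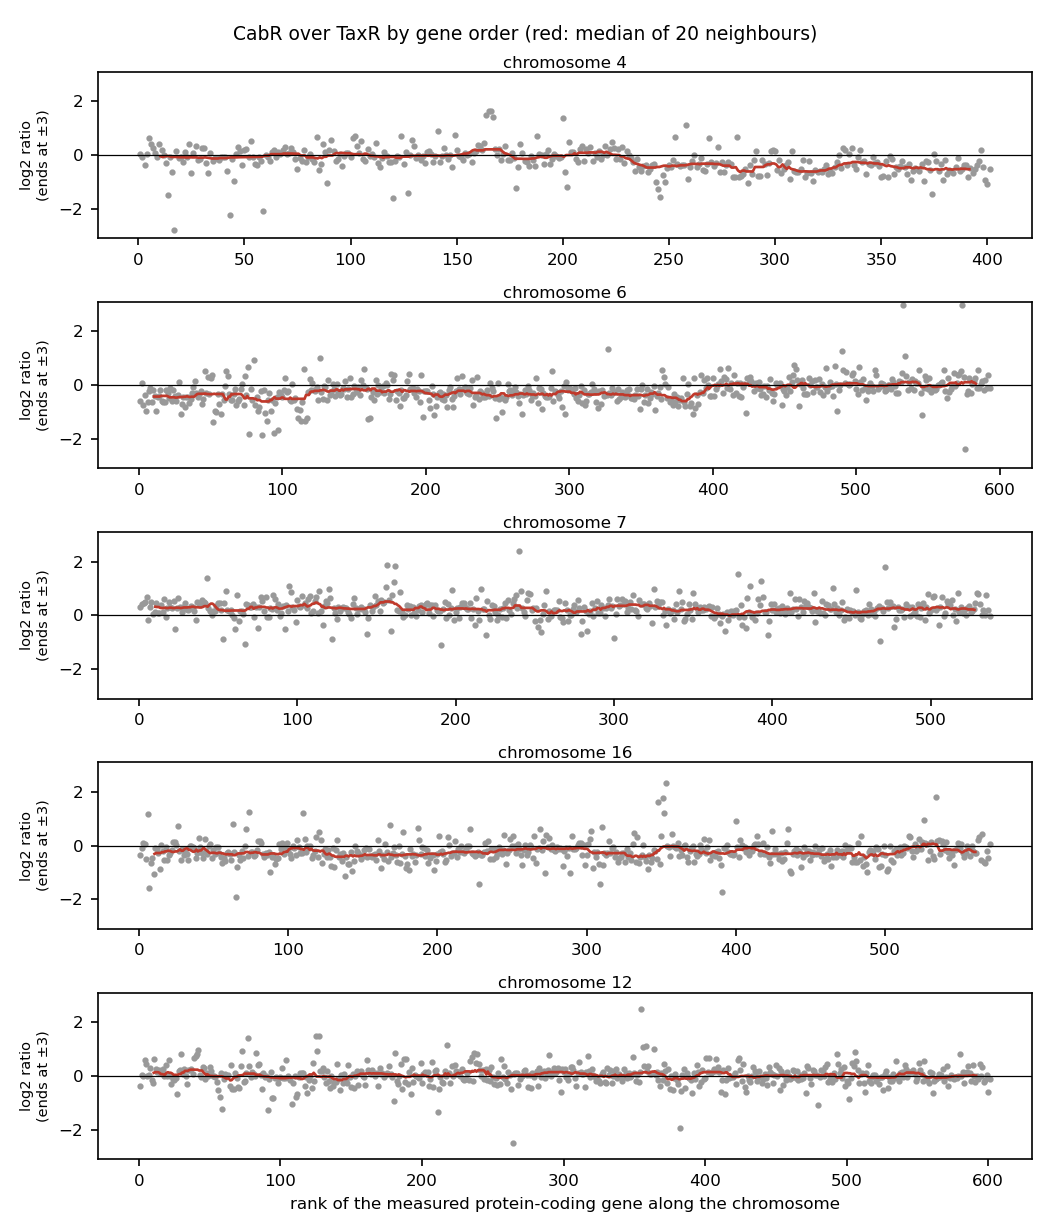
Log2 ratio of (FPKM + 1), CabR over TaxR, of measured protein-coding genes (grey points) in their order along chromosomes 4, 6, 7, 16 and, for contrast, 12; red lines are medians of 20 neighbouring genes and points past 3 in size are drawn at 3. The red line is below 0 over the later genes of chromosome 4, the earlier genes of chromosome 6 and most of chromosome 16, above 0 along chromosome 7 and near 0 on chromosome 12.

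The DU145 lineage holds the same drug step, CTXR against DTXR. Its libraries entered the comparison of CabR with TaxR through the limits for genes set aside. More genes passed the size rule there, with 1271 of 15101 genes higher in CTXR, which is 8.42%, and 915 lower, which is 6.06%. Both steps could be compared over 12493 genes, of which 1.39% were higher and 1.33% lower in CabR, and 5.91% higher and 4.89% lower in CTXR. Of the 174 genes higher in CabR among these, 29 were also higher in CTXR, which is 16.7% of the CabR genes and 3.93% of the CTXR genes. Another 24, or 13.8% of the CabR genes, were lower in CTXR. Of the 166 genes lower in CabR, 29 were also lower in CTXR and 27 were higher there, shares of 17.5% and 16.3%. Genes of the CabR step thus went either way in the DU145 lineage in similar numbers. Whether the lineages differ cannot be tested, because 1 library per line leaves no spread.

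Among genes that were higher in both steps, ETNK2 had 5.13 FPKM in CabR and 0.780 in TaxR, and 6.65 in CTXR and 1.79 in DTXR. PLD1, a phospholipase that makes phosphatidic acid, had 5.12 FPKM in CabR and 1.24 in TaxR, and 12.8 in CTXR and 3.83 in DTXR. PREX1, an exchange factor for the GTPase RAC, had 3.13 FPKM in CabR and 0.664 in TaxR, and 6.03 in CTXR and 0.509 in DTXR. The rest of those named by the same rule were noncoding RNAs or pseudogenes, such as RMRP and SNORD3C, which mRNA libraries measure poorly. SNAI2 was lower in both, with 1.08 FPKM in CabR and 6.98 in TaxR, and 0.0258 in CTXR and 2.39 in DTXR. The noncoding RNA PURPL, which is known to act on p53, had 0.720 FPKM in CabR and 3.39 in TaxR, and 4.83 in CTXR and 15.7 in DTXR. Of the genes highest in CabR, NOVA1 had 11.1 FPKM in CTXR and 6.22 in DTXR, a ratio of 0.74 that is under the rule. SLC22A3, with 0.0155 FPKM in CTXR and 0.311 in DTXR, and PLA2G2A, listed at 0 in both, were under the filter in that lineage and were not compared. KLK3, SLC45A3 and the UGT2B genes were near or at 0 FPKM in that lineage, apart from about 2.37 FPKM of SLC45A3 in CTXR and 2.53 in DTXR. Mitotic genes as a list had a median of 0.66 in the CabR step and -0.03 in the CTXR step.

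**Figure D5:**
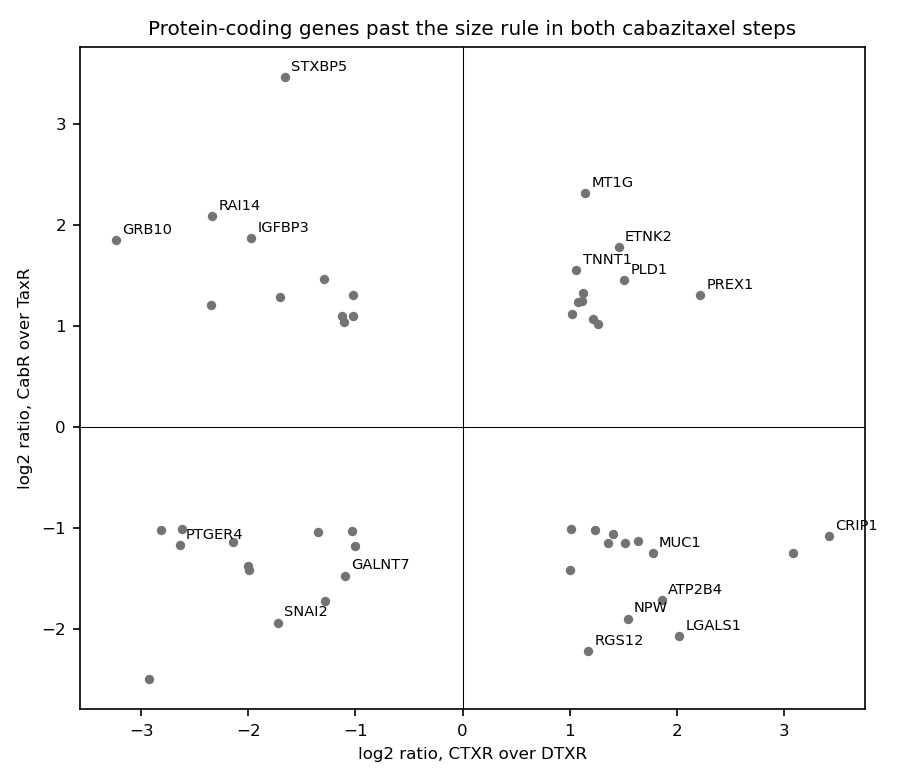
Protein-coding genes past the size rule in both drug steps, with the log2 ratio of CabR over TaxR (vertical) against that of CTXR over DTXR (horizontal), 1 point per gene and 1 library per line. All 4 corners are filled; STXBP5, RAI14, IGFBP3 and GRB10 are higher in CabR and lower in CTXR, and LGALS1, NPW and ATP2B4 the reverse.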

How the data were processed

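Messenger RNA was measured in 6 human prostate cancer lines, with 1 library per line, and groups were taken from the sample labels. Per the labels' protocols, RNA was isolated with TRIzol and libraries were made with a kit that keeps strand. HISAT, StringTie and Cuffnorm, with the build GRCh38, are listed per the submitters' processing notes, with no version. Which annotation was used, how strand entered the counting and if scaling was joint is not given in the sources used here. FPKM in 1 table per library were deposited by the authors for 60658 Ensembl identifiers, per the file headers. FPKM are estimates and not counts, so no count model was fitted. Read totals are not given in these sources. The fragments behind 1 FPKM were estimated from the steps of the lowest values.

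Symbols came from a gene table for 56550 identifiers, and biotypes and coordinates from GENCODE release 29, on GRCh38, for 57047. The ratio of log2(FPKM + 1) was computed over genes at 1 FPKM or more in either library. The size rule was a log2 ratio of 1, and no test was possible with 1 library per line. The size rule was checked on simulated data.

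The members and gene lists were chosen with earlier results of these data known. Named genes were ABCB1 and KLK3; the 20 highest and 20 lowest protein-coding genes with a symbol that reach 5 FPKM; up to 4 members per list past the rule, or else its largest ratio; and, over both drug steps, the 10 largest per shared direction and the 5 largest per opposite direction. Not every gene that this rule names is reported. Other list members, the genes of the chromosome stretches and the set-aside genes were named after their values were seen. Alternatives were other pseudocounts, filters, rescalings, a larger size rule, protein-coding genes only, set-aside genes kept and TaxR less its estimated DU145-lineage share. The looser limit for setting genes aside and the removal of the stretches were added after seeing the data. Python 3.11.15 with numpy 2.4.6, pandas 2.3.3 and matplotlib 3.10.9 was used.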

Additional observations from a re-analysis of the deposited data

Results flagged for a closer look

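Named genes past the size rule in opposite directions in the drug steps of the lineages are given here with the log2 ratio of (FPKM + 1). The difference between the lineages was not tested, since each line has 1 library. Higher in CabR than in TaxR, and lower in CTXR than in DTXR, were STXBP5, RAI14, IGFBP3, GRB10 and RPL36AP43. STXBP5 had a ratio of 3.47 for CabR over TaxR and -1.66 for CTXR over DTXR. RAI14 had 2.09 for CabR over TaxR and -2.33 for CTXR over DTXR, with 38.5 FPKM in CTXR and 198 FPKM in DTXR. IGFBP3 had 1.87 for CabR over TaxR and -1.97 for CTXR over DTXR. GRB10 had 1.85 for CabR over TaxR and -3.23 for CTXR over DTXR, with 2.02 FPKM in CTXR and 27.5 FPKM in DTXR. The ribosomal protein pseudogene RPL36AP43 had 2.32 for CabR over TaxR and is listed at 0 in TaxR and CTXR.

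Lower in CabR than in TaxR, and higher in CTXR than in DTXR, were LGALS1, NPW, ATP2B4, LINC02802 and EIF2B5-DT. LGALS1, the glycan-binding protein galectin 1, had -2.07 for CabR over TaxR and 2.02 for CTXR over DTXR, with 864 FPKM in CTXR and 212 FPKM in DTXR. With 1.72% of DU145-lineage levels taken off TaxR its ratio for CabR over TaxR was -0.94, under the size rule. The neuropeptide gene NPW had -1.90 for CabR over TaxR and 1.54 for CTXR over DTXR. ATP2B4, a calcium pump of the cell membrane, had -1.72 for CabR over TaxR and 1.86 for CTXR over DTXR. The noncoding LINC02802 had -1.66 for CabR over TaxR. EIF2B5-DT had -1.62 for CabR over TaxR and is listed at 0 in CabR and DTXR.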

How the results depend on the processing

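The counts of called genes followed the handling of low values. Of genes higher and lower in CabR there were 305 and 312, against 578 and 619 with a pseudocount of 0.1, 53 and 59 with a pseudocount of 5, and 124 and 129 among genes at 5 FPKM or more. Protein-coding genes alone gave 145 and 154, and a size rule of 2 gave 48 and 41. Rescaling the libraries in 4 ways shifted the ratios by at most 0.06 and gave 308 to 337 higher and 287 to 312 lower genes. Genes past the rule in the same direction in both drug steps numbered 58, against 269 with a 1.5-fold size rule and 150 with a pseudocount of 0.1. With 1.72% of DU145-lineage levels taken off TaxR there were 349 higher and 290 lower genes, UCHL1 had a ratio of 1.44 in place of -1.59, and the median of DU145 markers was 0.31 in place of -1.07. That share is the median of genes chosen for their TaxR level and exceeds those of MT1E (0.0958%) and DKK1 (0.639%), so these turns follow from the share used. Without the chromosome stretches the median of IGF binding proteins was -0.062, from IGFBP2 alone. Over 14 alternatives the median of androgen-induced genes lay between -0.53 and -0.47, and that of mitotic genes between 0.58 and 0.72. Other medians moved more: androgen inactivation enzymes lay between 0.65 and 1.75 and androgen-repressed genes between 0.66 and 1.57, both under the size rule with a pseudocount of 5, and metallothioneins lay between 0.061 and 1.17. With a pseudocount of 5, 42 of 110 named genes no longer passed the rule. No paired analysis was possible because each line has 1 library, and for the same reason no library could be left out. Depth limits genes near 1 FPKM, which rest on few fragments.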
